A study of Arabidopsis thaliana with 10 samples.

Results

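Lipid transfer proteins are small secreted proteins that bind lipids, and 10 genes of Arabidopsis thaliana that encode them were followed across dexamethasone-treated seedlings of lines titled GFP, DIG1 and DIG2. The genes were LTP1 (AT2G38540), LTP2 (AT2G38530), LTP3 (AT5G59320), LTP4 (AT5G59310), LTP5 (AT3G51600), LTP6 (AT3G08770), LTPG1 (AT1G27950), LTPG2 (AT3G43720), EARLI1 (AT4G12480) and AZI1 (AT4G12470). They were chosen by name, as rows of the deposited expression tables and with earlier results of the same data known, so the tests on them describe these libraries and are not independent support for a pattern. The table for 4 h lists 17371 genes and holds 8 of the 10. The table for 10 d lists 17433 genes and holds all 10. LTP3 and LTP4 are not listed at 4 h, and the tables together hold 18411 genes.

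RNA was taken from whole seedlings of the Col-0 accession, in 5 groups of 2 libraries and 10 libraries in all. The GFP, DIG1 and DIG2 groups at 4 h were etiolated seedlings, aged 3 d and raised without light, that received 10 µM dexamethasone for 4 h, still in darkness. The GFP and DIG1 groups at 10 d were seedlings kept in long days for 10 d on plates with 500 nM dexamethasone, the dose in the treatment labels, while the growth text prints that number with mM as its unit. Dexamethasone is a synthetic glucocorticoid that serves in plants as the chemical trigger of inducible transgenes. Every group received it, so each comparison is between lines and none is between treated and untreated seedlings. The series calls the DIG proteins transcription factors that respond to abscisic acid (ABA), a hormone of drought and of seed dormancy. The labels do not name the promoter of the transgenes, the number of independent lines or whether replicates were separate cultures. The p-values therefore reflect how far these libraries differ from each other, and that spread may be technical.

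Plant lipid transfer proteins carry 8 cysteines that form disulfide bridges around a hydrophobic pocket, and most are exported to the cell wall. In shoots many are made in the epidermis, the layer that builds the cuticle of cutin and wax over the plant's surface. The GPI-anchored proteins LTPG1 and LTPG2 sit on the outer face of the plasma membrane and are needed for normal delivery of wax to the cuticle. AZI1 and EARLI1 join a proline-rich stretch to the lipid transfer domain, and AZI1 is known for priming systemic resistance to pathogens. LTP3 and LTP4 are known as genes induced by drought and ABA, and LTP3 is a direct target of MYB96, a regulator of cuticular wax.

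The coding sequences of 3 neighbouring pairs are shown because the members of a pair are alike in sequence and were not always alike in expression. Each is the spliced coding sequence from the first to the last of the 8 cysteine codons, 5′ to 3′, with the cysteine codons in capitals, read from the TAIR10.1 genome of RefSeq.
LTP1: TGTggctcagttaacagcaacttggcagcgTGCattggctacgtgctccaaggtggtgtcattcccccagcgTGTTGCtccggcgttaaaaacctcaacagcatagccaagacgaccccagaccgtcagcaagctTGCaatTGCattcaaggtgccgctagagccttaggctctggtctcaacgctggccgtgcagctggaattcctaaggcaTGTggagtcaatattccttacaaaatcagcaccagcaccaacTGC
LTP2: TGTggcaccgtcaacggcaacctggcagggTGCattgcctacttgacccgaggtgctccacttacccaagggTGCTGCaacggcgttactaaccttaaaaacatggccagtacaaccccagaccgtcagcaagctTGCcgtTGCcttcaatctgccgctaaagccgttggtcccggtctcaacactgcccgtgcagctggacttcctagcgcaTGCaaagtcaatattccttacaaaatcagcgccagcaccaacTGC
LTP3: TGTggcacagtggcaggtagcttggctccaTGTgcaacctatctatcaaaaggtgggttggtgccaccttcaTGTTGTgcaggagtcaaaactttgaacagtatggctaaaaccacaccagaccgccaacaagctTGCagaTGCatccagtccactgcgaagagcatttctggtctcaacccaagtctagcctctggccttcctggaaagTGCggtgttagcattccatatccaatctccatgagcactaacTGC
LTP4: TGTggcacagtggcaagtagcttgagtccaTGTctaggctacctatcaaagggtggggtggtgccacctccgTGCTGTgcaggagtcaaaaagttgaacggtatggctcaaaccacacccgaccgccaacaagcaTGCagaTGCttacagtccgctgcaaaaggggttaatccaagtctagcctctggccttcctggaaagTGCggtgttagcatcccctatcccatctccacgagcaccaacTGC
EARLI1: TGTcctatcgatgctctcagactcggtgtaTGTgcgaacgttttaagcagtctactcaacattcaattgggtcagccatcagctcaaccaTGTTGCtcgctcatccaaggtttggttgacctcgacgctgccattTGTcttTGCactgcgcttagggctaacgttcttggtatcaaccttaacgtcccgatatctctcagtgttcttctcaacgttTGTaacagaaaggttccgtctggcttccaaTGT
AZI1: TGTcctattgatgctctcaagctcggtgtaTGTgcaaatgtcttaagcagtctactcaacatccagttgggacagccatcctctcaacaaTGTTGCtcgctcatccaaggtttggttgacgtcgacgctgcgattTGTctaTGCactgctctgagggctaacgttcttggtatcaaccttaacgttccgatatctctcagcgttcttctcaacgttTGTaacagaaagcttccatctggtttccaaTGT

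All 10 coding sequences held the 8 cysteine codons in the same order, with cysteines 3 and 4 adjacent and 1 codon between cysteines 5 and 6. Between cysteines 1 and 2 there were 9 codons in every gene. The 6 secreted type 1 proteins, LTP1 to LTP6, had 13 codons between cysteines 2 and 3 and 19 between cysteines 4 and 5. EARLI1 and AZI1 had 19 and 13 there, and LTPG1 had 14 and 12. LTP4 had the shortest spacing of the 10 between cysteines 6 and 7, 19 codons, against 22 in LTP3 and 23 in LTP1 and LTP2.

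LTP1 lies on chromosome 2 at 16130290 to 16131240 and LTP2 at 16128176 to 16129399 (TAIR10.1), both on the plus strand, with 890 bases and no protein-coding gene between them. Their coding sequences were 82.4% identical over 357 aligned positions. LTP3 (chromosome 5, 23928954 to 23929816, plus strand) and LTP4 (23924990 to 23925957, minus strand) lie 2996 bases apart in opposite orientation, with 84.5% identity over 348 positions. EARLI1 (chromosome 4, 7406065 to 7406994) and AZI1 (7401087 to 7401951) lie 4113 bases apart on the minus strand, with 84.1% identity over 510 positions. The longest identical stretch of coding sequence was 27 bases for LTP1 and LTP2, 44 for LTP3 and LTP4 and 32 for EARLI1 and AZI1. How the authors counted a read that matches both members of a pair is not given in the sources used here, so some reads could stand under the wrong member. LTP5 (chromosome 3, 19138338 to 19139423), LTP6 (chromosome 3, 2664069 to 2664888), LTPG1 (chromosome 1, 9740508 to 9742159) and LTPG2 (chromosome 3, 15615386 to 15617309) have no other member beside them.

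Values are RPKM, reads scaled by the length of the gene and the size of the library, as the authors deposited them. Between 9986268 and 19025166 reads per library stood on the listed genes, as worked out from the steps between RPKM values. The labels of the lines were checked on the genes the series is about. AT5G50360, printed in the DIG2 titles, was at 3782 ± 1551 RPKM (SD, n = 2) in DIG2 and 0.822 ± 0.0763 in GFP at 4 h. The DIG1 titles print AT3G45810, which neither table lists. AT3G48510, which differs from it by an exchange of a pair of digits and was chosen after its values were seen, was at 1577 ± 197 RPKM in DIG1 and 0.992 ± 0.624 in GFP at 4 h, and at 1833 ± 81.9 and 1.18 ± 0.344 at 10 d (SD, n = 2 each).

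The first comparison asked which lipid transfer protein genes differed from GFP in light-grown DIG1 seedlings after 10 d on dexamethasone. LTP1, LTP3, LTP4, LTP5, LTP6, LTPG1, LTPG2 and EARLI1 fell in DIG1, by limma on log2(RPKM + 0.5) with adjusted p under 0.05 over all genes of the table. These were 8 of 10 genes lower and 0 higher. LTP3 and LTP4 reached 2 CPM (reads scaled to the library total), the level above which nearly all genes of the table lie, in GFP and in no DIG1 library, so they could be listed only through the line where they were high. Without them, 6 of 8 genes were called lower and the median log2 change was -1.26. Of all 17433 genes, 63.1% were called in either direction and 31.2% were called lower, so a call by itself was common in this comparison. The median log2 change over the 10 genes was -1.46, and over all genes it was 0.05. Both DIG1 libraries were below both GFP libraries for 9 of the 10, which held for 40.2% of all genes. In whole seedlings, fewer cells of a type and less RNA per cell cannot be told apart.

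**Figure D1:**
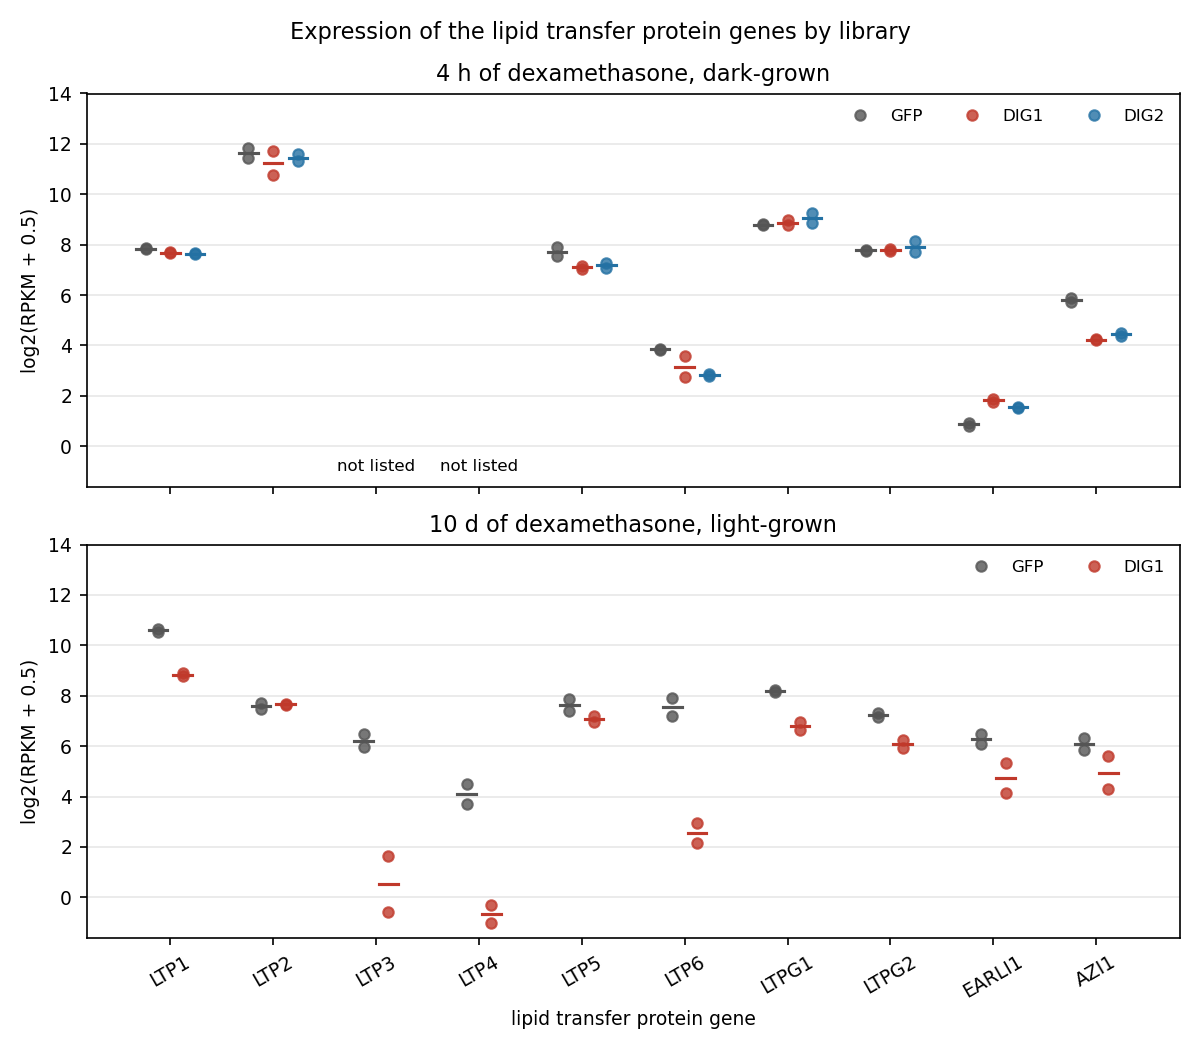
Expression of each lipid transfer protein gene, as log2(RPKM + 0.5), in each library (points) with the group mean (bars), for GFP in grey, DIG1 in red and DIG2 in blue. The upper panel shows 4 h and the lower panel 10 d, which were normalized apart. At 10 d both DIG1 points lie under both GFP points for every gene but LTP2.

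LTP3, LTP4 and LTP6, 3 secreted type 1 proteins, had the lowest log2 changes, of which only LTP6 reached 2 CPM in DIG1 as well as in GFP. LTP3 was at 61.4 and 88.8 RPKM in the GFP libraries and at 2.65 and 0.164 in the DIG1 libraries. The DIG1 values rest on 27 and 2 reads, against 496 and 1091 reads in GFP. The groups did not overlap, and the log2 change was -5.68 ± 0.73 (SE; limma adjusted p = 0.0021). LTP4 was at 12.6 and 21.8 RPKM in GFP, and at 0.319 RPKM and 0 in DIG1. The libraries held 94 and 248 reads of LTP4 in GFP, and 3 and 0 in DIG1, where 3 reads would be 0.265 RPKM in the library with none. Over the 2 libraries of each line LTP4 stood at 0.798% of its GFP level, with an exact 95% interval of 0.164% to 2.35% that covers counting error only. The log2 change of LTP4 was -4.74 ± 0.36 (SE; limma adjusted p = 0.000536), a value that depends on the 0.5 RPKM added before the logarithm. LTP6 was at 242.6 and 147.3 RPKM in GFP and at 7.23 and 3.92 in DIG1. The mean of LTP6 in DIG1 was 2.86% of that in GFP, with a log2 change of -5.02 ± 0.35 (SE; limma adjusted p = 0.000439).

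LTP1 was the most abundant member at 10 d in both lines. Its levels were 1485 and 1607 RPKM in GFP and 478.1 and 435 in DIG1. The mean was 3.39 times lower in DIG1, and the log2 change was -1.76 ± 0.14 (SE; limma adjusted p = 0.000551). LTP2, the tandem neighbour of LTP1, was at 210.8 and 178.1 RPKM in GFP and at 200.1 and 202.4 in DIG1. The DIG1 values of LTP2 lay between the GFP values, and its log2 change was 0.05 ± 0.12 (SE; limma adjusted p = 0.703). LTP5, a type 1 protein studied in pollen tube growth, was at 168.6 and 231.7 RPKM in GFP and at 122.7 and 147.1 in DIG1. The groups of LTP5 did not overlap but lay close, with a log2 change of -0.56 ± 0.18 (SE; limma adjusted p = 0.0461). That call was lost without GFP replicate 2 (-0.33, adjusted p = 0.172), without DIG1 replicate 1 (-0.42, adjusted p = 0.155) and without DIG1 replicate 2 (-0.69, adjusted p = 0.0503).

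The GPI-anchored proteins fell together. LTPG1 was at 279.6 and 296.5 RPKM in GFP and at 98.8 and 124 in DIG1, and LTPG2 was at 141.3 and 157.8 in GFP and at 59.9 and 75.5 in DIG1. Neither gene's groups overlapped. The log2 change was -1.38 ± 0.14 (SE; limma adjusted p = 0.000982) for LTPG1 and -1.15 ± 0.14 (SE; limma adjusted p = 0.00184) for LTPG2. In each line LTPG1 was above LTPG2.

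EARLI1 and AZI1, the proline-rich pair, were at similar levels at 10 d and differed by a larger ratio between the DIG1 libraries than LTPG1 or LTPG2 did. EARLI1 was at 68 and 88.5 RPKM in GFP and at 17 and 39.9 in DIG1. AZI1 was at 57.4 and 79.3 RPKM in GFP and at 19.2 and 48.2 in DIG1. For both genes each DIG1 library was below each GFP library, and DIG1 replicate 2 was the higher of the DIG1 pair. LTP3, LTP4 and LTP6 had the opposite order, with DIG1 replicate 1 the higher. EARLI1 passed the test with a log2 change of -1.55 ± 0.40 (SE; limma adjusted p = 0.0209), a call lost without GFP replicate 1 (-1.74, adjusted p = 0.0664) or GFP replicate 2 (-1.36, adjusted p = 0.109). AZI1 did not pass, with -1.13 ± 0.44 (SE; limma adjusted p = 0.0707). Without DIG1 replicate 2 the log2 change of AZI1 was -1.79 (adjusted p = 0.00339).

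In order of level, the GFP seedlings at 10 d had LTP1 first, then LTPG1, a group of LTP5, LTP6 and LTP2 whose library values overlapped, LTPG2, and a group of LTP3, EARLI1 and AZI1 whose values also overlapped, with LTP4 lowest. LTPG2 overlapped LTP6 as well. In DIG1 the order was LTP1, then LTP2, then LTP5 with LTPG1, whose values overlapped, then LTPG2, then AZI1 with EARLI1, whose values overlapped, and last LTP6, LTP3 and LTP4. The summed level of the 10 genes was 2727.3 and 2896.5 RPKM in the GFP libraries and 1006.1 and 1076 in the DIG1 libraries, with LTP1 the largest part in each. In the authors' deposited table, 9 of the 10 genes have an FDR under 0.05 at 10 d. The gene called there and not by limma is AZI1, whose log2 change in the authors' deposited table is -1.019 with an FDR of 0.00323.

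The second comparison asked which genes differed from GFP in dark-grown DIG1 seedlings after 4 h. AZI1 and LTP5 fell and EARLI1 rose, 3 of the 8 listed genes, while 8.54% of all 17371 genes were called in this comparison. The median log2 change of the 8 genes was -0.28, against -0.00 over all genes. AZI1 was at 53 and 58.2 RPKM in GFP and at 18.7 and 17.9 in DIG1. Its groups were far apart beside their spread, with a log2 change of -1.58 ± 0.10 (SE; limma adjusted p = 2.07e-05). LTP5 was at 236.9 and 186.2 RPKM in GFP and at 140.7 and 131.9 in DIG1. Its log2 change was -0.62 ± 0.13 (SE; limma adjusted p = 0.0187), and the call was lost without GFP replicate 1 (-0.45, adjusted p = 0.155), DIG1 replicate 1 (-0.67, adjusted p = 0.0572) or DIG1 replicate 2 (-0.58, adjusted p = 0.0975). EARLI1 was near the bottom of the table, at 1.39 and 1.26 RPKM in GFP and at 3.18 and 2.89 in DIG1. These values rest on 16 and 13 reads in GFP and on 27 in each DIG1 library. EARLI1 reached 2 CPM at 4 h only in the DIG1 libraries, at 2.64 and 2.7 CPM. The GFP libraries had 1.02 and 1.17 CPM and the DIG2 libraries 1.96 and 1.98, so its listing rested on the line where it was highest. Without EARLI1, 2 of 7 genes were called in DIG1, both lower. The log2 change of EARLI1 was 0.95 ± 0.18 (SE; limma adjusted p = 0.00908), and the call was lost without GFP replicate 2 (0.90, adjusted p = 0.076) or DIG1 replicate 1 (0.89, adjusted p = 0.0566).

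LTP1, LTP2, LTP6, LTPG1 and LTPG2 did not pass the test in DIG1 at 4 h. LTP2 was among the 10 most abundant genes of every library at 4 h. It was at 2758 and 3671 RPKM in GFP and at 3374 and 1723 in DIG1, where the replicates lay on either side of the lower GFP value. Its log2 change of -0.40 ± 0.43 (SE; limma adjusted p = 0.658) became 0.08 without DIG1 replicate 2. LTP6 was at 13.9 and 13.8 RPKM in GFP and at 11.6 and 6.14 in DIG1. Both DIG1 libraries were lower for LTP6, but they differed from each other more than the upper one did from GFP, and the log2 change was -0.68 ± 0.23 (SE; limma adjusted p = 0.104). Without DIG1 replicate 1 it was -1.11 (adjusted p = 0.0086). LTP1 was at 225.1 and 232.2 RPKM in GFP and at 209.6 and 200.3 in DIG1, a log2 change of -0.16 ± 0.11 (SE; limma adjusted p = 0.451). LTPG1 was at 433.5 and 449.9 RPKM in GFP and at 499.4 and 436.5 in DIG1, and LTPG2 at 220.2 and 217.4 in GFP and at 229.2 and 212.6 in DIG1. The groups overlapped for both GPI-anchored genes, with log2 changes of 0.08 ± 0.17 for LTPG1 and 0.01 ± 0.15 for LTPG2 (SE).

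The third comparison put DIG2 seedlings at 4 h against the GFP libraries that also served for DIG1. AZI1, LTP5 and LTP6 fell and EARLI1 rose, 4 of 8 genes (3 of 7 without EARLI1, all lower), while 14.9% of all genes were called. AZI1 was at 22.2 and 20.2 RPKM in DIG2, with a log2 change of -1.37 ± 0.10 (SE; limma adjusted p = 6.03e-05). LTP6 was at 6.85 and 6.37 RPKM, close to DIG1 replicate 2, with a log2 change of -1.01 ± 0.23 (SE; limma adjusted p = 0.0164). LTP5 was at 135.8 and 155.3 RPKM, with a log2 change of -0.53 ± 0.13 (SE; limma adjusted p = 0.0264). EARLI1 was at 2.4 and 2.48 RPKM, from 31 and 26 reads, with a log2 change of 0.69 ± 0.18 (SE; limma adjusted p = 0.0282). For these 4 genes both DIG2 libraries lay on the same side of both GFP libraries. Of all 17371 genes, 5085 lay wholly above GFP and 5364 wholly below, so such separation was common. The 4 genes were picked by the test on these values, so it adds no support. With 1 GFP or DIG2 library left out, between 1 and 2 of the 4 calls passed. AZI1 was called in every such fit, and the calls of LTP6 and EARLI1 were each lost without GFP replicate 1, GFP replicate 2, DIG2 replicate 1 or DIG2 replicate 2, at adjusted p between 0.0562 and 0.152. LTP5 was lost without GFP replicate 1 (-0.36, adjusted p = 0.209) or DIG2 replicate 1 (-0.43, adjusted p = 0.163).

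The other 4 genes did not pass in DIG2. LTP1 was at 197.1 and 203.2 RPKM, below both GFP libraries, with a log2 change of -0.19 ± 0.11 (SE; limma adjusted p = 0.266). LTP2 was at 2560 and 3079 RPKM and overlapped GFP. LTPG1 was at 469.1 and 611.7 RPKM, above both GFP libraries, with a log2 change of 0.28 ± 0.17 (SE; limma adjusted p = 0.313). LTPG2 was at 208.8 and 281.8 RPKM, on either side of GFP.

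**Figure D2:**
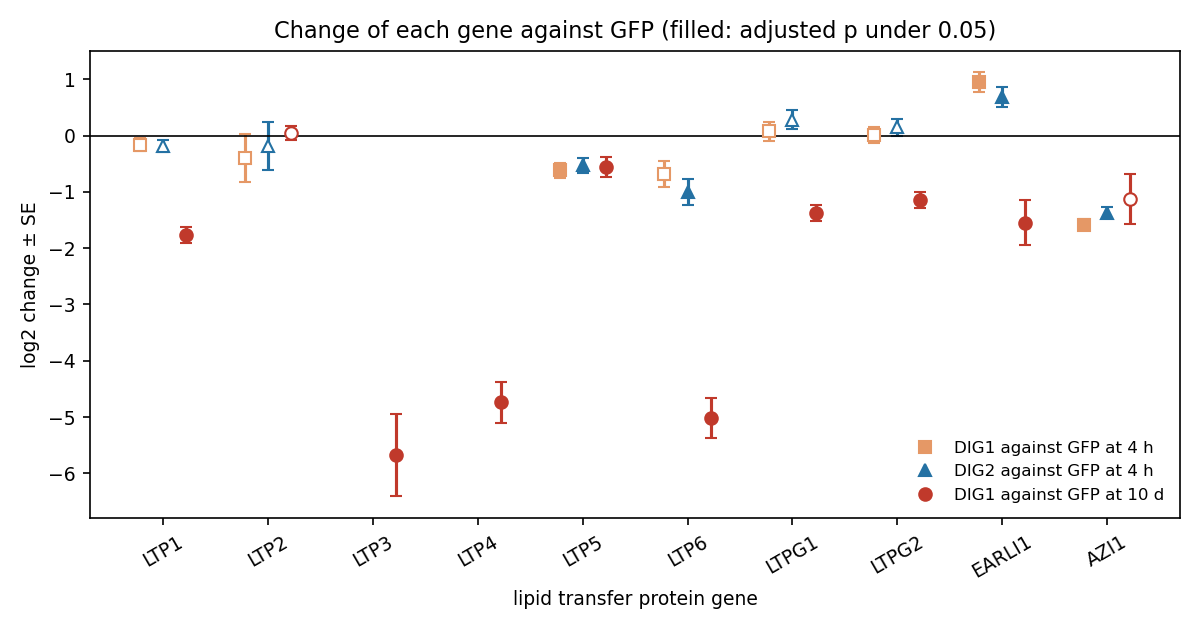
The log2 change of each lipid transfer protein gene against GFP, on the log2(RPKM + 0.5) scale with its standard error, for DIG1 at 4 h (orange squares), DIG2 at 4 h (blue triangles) and DIG1 at 10 d (red circles); filled symbols have a limma adjusted p under 0.05. LTP1, LTP5, LTP6 and AZI1 are below 0 in all 3 comparisons, with open symbols among those of LTP1, LTP6 and AZI1, EARLI1 is above 0 at 4 h and below 0 at 10 d, and LTP3, LTP4 and LTP6 are the lowest points at 10 d.

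A direct comparison of DIG1 with DIG2 at 4 h called 0 of the 8 genes by limma, where 2.36% of all genes were called. At an unadjusted p under 0.05 the count was also 0, against 3018 of all 17371 genes, and limma voom on recovered reads called 0. AZI1 came nearest, at 18.3 ± 0.566 RPKM in DIG1 and 21.2 ± 1.42 in DIG2 (SD, n = 2), with a log2 change of -0.21 ± 0.10 (SE; limma adjusted p = 0.326). The largest difference by size was that of LTP6, 0.33 ± 0.23 (SE; limma adjusted p = 0.5), which turned to -0.10 without DIG1 replicate 1. These p-values do not show that the lines acted alike on the genes.

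No level is set against one of the other table, since the tables were normalized apart and the seedlings differ in age, light and dose. Within its own table, LTP2 ranked between 4 and 9 among all genes in the dark-grown libraries at 4 h and between 444 and 592 in the light-grown libraries at 10 d. LTP1 ranked between 411 and 517 at 4 h, and at 10 d it ranked 56 and 48 in GFP and 121 and 175 in DIG1. EARLI1 ranked between 14998 and 16941 at 4 h and between 1295 and 6723 at 10 d.

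Of 22 further lipid transfer protein genes on a list of relatives, 15 were listed at 10 d. In DIG1, 12 of the 15 fell and 1 rose, with a median log2 change of -2.10, while 31.2% of all genes were called lower. Relatives low in DIG1 may, like LTP3 and LTP4, be listed only through GFP, and no count without them was made. Among these low genes were AT2G18370, at 0.096 and 0.88 RPKM in the DIG1 libraries, and AT5G01870, at 0.49 and 0.51. AT2G18370 went from 28.3 RPKM in GFP to 0.488 in DIG1 (log2 change -4.96; limma adjusted p = 0.000726). AT5G01870 went from 26.9 to 0.497 (-4.61; adjusted p = 0.00102), and AT3G22600, annotated as the GPI-anchored LTPG5, from 44.6 to 2.91 (-3.80; adjusted p = 0.000799). AT5G48490 went from 89 to 6.78 RPKM (-3.61; adjusted p = 0.000195). The 1 that rose was CWLP, a cell wall-plasma membrane linker protein named here after its value was seen, at 464 RPKM in GFP and 1691 in DIG1 (1.89; adjusted p = 0.00252).

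At 4 h, 14 of the relatives were listed. In DIG1, 2 fell and 0 rose, while 8.54% of all genes were called. AT5G01870 went from 10.4 RPKM in GFP to 5.21 (log2 change -0.93; limma adjusted p = 0.00592) and AT3G22600 from 53.9 to 32.4 (-0.73; adjusted p = 0.0337). In DIG2, 3 fell and 1 rose, while 14.9% of all genes were called. AT5G48490 was at 41.2 RPKM in GFP, 40.6 in DIG1 and 20.1 in DIG2, and DIG1 differed from DIG2 by a log2 change of 1.00 (limma adjusted p = 0.00445). No other listed relative was called between the DIG lines.

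Genes that make or export the lipids of the cuticle moved at 10 d. Of 11 listed genes of wax synthesis and export, 9 fell and 0 rose in DIG1, with a median log2 change of -1.04. Of all genes, 31.2% were called lower. CER1, which makes the alkanes of the wax, went from 44.7 RPKM in GFP to 0.788 in DIG1 (log2 change -5.38; limma adjusted p = 0.00111). CER2, which helps to elongate fatty acids, went from 30.4 to 9.43 (-1.65; adjusted p = 0.00237), and the elongating enzymes KCS1 and KCS6 from 58 to 20.9 (-1.46; adjusted p = 0.00236) and from 176 to 73.3 (-1.24; adjusted p = 0.00321). Of 11 cutin genes, 10 fell and 0 rose, with a median of -1.80. Genes of both lists that were low in DIG1, such as CER1, may be listed only through GFP. The acyltransferase PEL3 (known as DCR) went from 42.3 to 2.27 RPKM (-3.99; adjusted p = 0.00046), HTH from 69.3 to 7.52 (-3.13; adjusted p = 0.000254) and the glycerol acyltransferase GPAT6 from 6.39 to 0.556 (-2.71; adjusted p = 0.000357).

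Of 6 listed regulators of the cuticle, MYB16 and MYB106, which activate cuticle genes, fell, and AT5G61590 (DEWAX, a repressor of wax genes) rose. Of all genes, 63.1% were called at 10 d. MYB16 went from 18 to 7.23 RPKM (-1.26; adjusted p = 0.000707), MYB106 from 6.12 to 1.44 (-1.78; adjusted p = 0.0014) and AT5G61590 from 16.6 to 108 (2.71; adjusted p = 0.000937). MYB96, given here for its known action on LTP3, was at 8.93 RPKM in GFP and 10.3 in DIG1 and did not pass (0.18; adjusted p = 0.532). At 4 h, 0 of 12 wax genes and 0 of 9 cutin genes were called in DIG1 by limma, and 3 of each had an unadjusted p under 0.05. Of all 17371 genes, 8.54% were called there and 3831 had an unadjusted p under 0.05. AT5G61590 was also higher in the dark-grown DIG lines at 4 h, at 64.9 RPKM in GFP, 109 in DIG1 (0.75; adjusted p = 0.00613) and 120 in DIG2 (0.88; adjusted p = 0.00209). The times are separate experiments, so no order of changes can be read from them. In DIG2 at 4 h, 1 wax gene fell, and of the cutin genes 2 fell and 1 rose, while 14.9% of all genes were called.

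**Figure D3:**
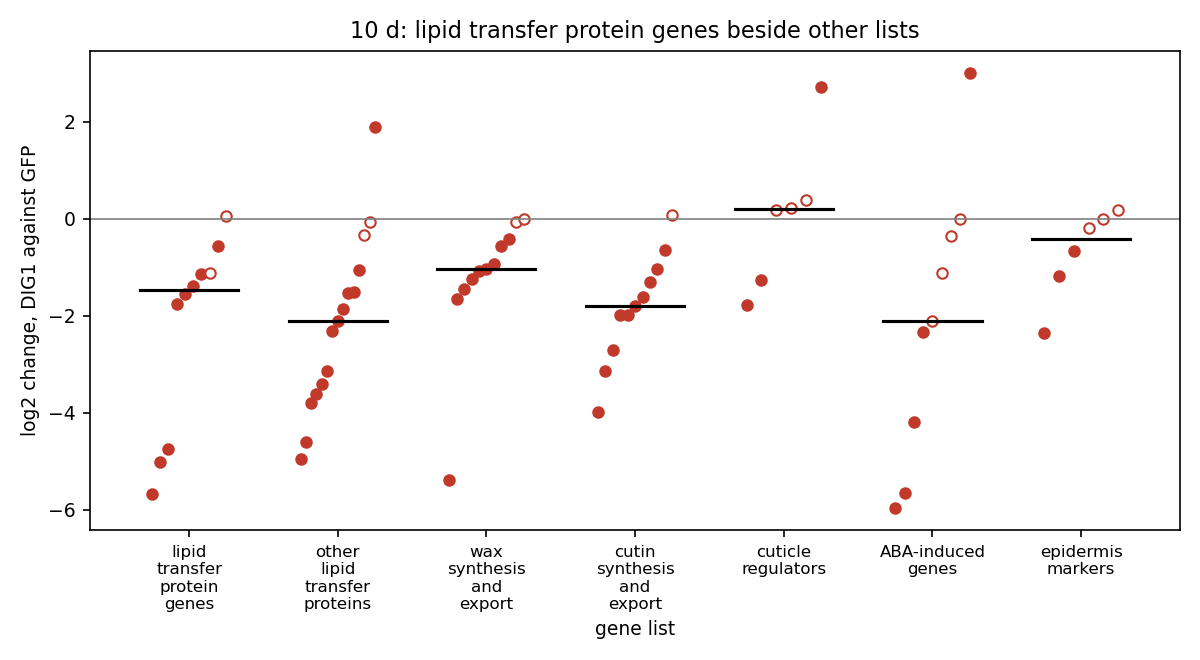
The log2 change of single genes (points) between DIG1 and GFP at 10 d, for the 10 lipid transfer protein genes and 6 other lists, with each list's median (bars); filled points have a limma adjusted p under 0.05. The medians are -1.46 for the lipid transfer protein genes, -2.10 for their relatives, -1.04 for wax genes and -1.80 for cutin genes, and 0.20 for cuticle regulators. The lists include genes low in DIG1 that may be listed only through GFP.

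ABA-induced genes were set beside LTP3 and LTP4. Of 9 listed at 10 d, 4 fell in DIG1, 1 rose and 4 did not pass. Of all genes, 63.1% were called, 31.2% lower and 31.9% higher. ERD10, a dehydrin, went from 85.9 RPKM in GFP to 0.962 in DIG1 (log2 change -5.97; limma adjusted p = 0.000293), KIN1 from 39.2 to 0.366 (-5.65; adjusted p = 0.000581) and COR15A, a chloroplast protein of cold tolerance, from 23.5 to 1.29 (-4.20; adjusted p = 0.00655). ERD10, KIN1 and COR15A were low in DIG1 and may be listed only through GFP. AT4G25580 rose from 1.04 to 11.7 (3.01; adjusted p = 0.000511). RAB18, a dehydrin widely used as an ABA marker, went from 46 to 8.52 (-2.33; adjusted p = 0.00154). At 4 h, 2 of 7 listed genes rose and 1 fell in DIG1, and 3 rose and 1 fell in DIG2. Of all genes, 8.54% were called in DIG1 and 14.9% in DIG2 at 4 h. LTI65 and LTI78 rose and ERD10 fell in both DIG lines. AT4G25580 was at 16.7 RPKM in GFP, 19.2 in DIG1 (0.19; adjusted p = 0.473) and 42.2 in DIG2 (1.30; adjusted p = 0.000403), and it was the 1 gene of the list called between the DIG lines (-1.11 for DIG1 against DIG2; adjusted p = 0.00487). LTI78 went from 15.6 RPKM in GFP to 32.2 in DIG1 (1.02; adjusted p = 0.00436) and 37.2 in DIG2 (1.20; adjusted p = 0.00133), and ERD10 from 65 to 35.7 (-0.84; adjusted p = 0.00638) and 25.9 (-1.31; adjusted p = 0.000497). The summed level of the 7 ABA-induced genes listed at 4 h was 450 RPKM in DIG1 replicate 1 and between 98.5 and 149 in the other 5 libraries. All 8 listed lipid transfer protein genes were higher in that library than in DIG1 replicate 2, LTP2 and LTP6 by the largest ratios, and the part of such a difference between libraries in their values was not tested.

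For AZI1, a list of 8 genes of systemic resistance gave 6 listed at 4 h. In both DIG lines PR1, a defence marker, rose and NHO1, a glycerol kinase of pathogen resistance, fell. At that time 8.54% of all genes were called in DIG1 and 14.9% in DIG2. NHO1 went from 70.8 RPKM in GFP to 40.1 in DIG1 (log2 change -0.82; limma adjusted p = 0.00499) and 33.4 in DIG2 (-1.08; adjusted p = 0.00086). PR1 was low, at 0.516 RPKM in GFP, 4.25 in DIG1 and 1.4 in DIG2. Its log2 change was 2.26 in DIG1 (limma adjusted p = 0.000955) and 0.91 in DIG2 (limma adjusted p = 0.0482). DIG1 was above DIG2 by a log2 change of 1.35 (limma adjusted p = 0.0324). Like EARLI1, PR1 may be listed at 4 h only through DIG1, the line where it was highest. At 10 d, 2 of 5 listed genes fell in DIG1 and 1 rose, while 63.1% of all genes were called. NHO1 went from 39.6 to 4.68 RPKM (-2.95; adjusted p = 0.000225) and AT5G52810 from 9.26 to 3.29 (-1.36; adjusted p = 0.00122), and NPR1, a receptor of salicylic acid signalling, rose from 8.51 to 19.2 (1.13; adjusted p = 0.00163).

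Markers of several tissues were measured beside the lipid transfer protein genes at 10 d, where 31.2% of all genes were called lower. Of 6 epidermis markers, 3 fell in DIG1, and KCS10, CR4 and HDG2 did not pass. The summed level was 658 and 637 RPKM in GFP and 279 and 346 in DIG1, with none at 0. PDF1, a protein of the outermost cell layer, was lower in DIG1, at 78.4 RPKM against 394 in GFP (log2 change -2.35; limma adjusted p = 0.000699), ATML1, the master regulator of epidermal identity, from 42.9 to 18.6 (-1.18; adjusted p = 0.000576) and its partner PDF2 from 41.7 to 26 (-0.67; adjusted p = 0.00411). PDF1 made up most of the fall in the epidermis sum, and KCS10, the next most abundant marker in GFP, was at 155 RPKM in GFP and 176 in DIG1 (0.18; adjusted p = 0.269). Of 5 guard cell markers, 3 fell and 1 rose. Their sums were 87.6 and 87.5 RPKM in GFP and 28.7 and 33.2 in DIG1. AT1G22690 carried most of that difference (52.1 RPKM in GFP and 2.49 in DIG1, limma adjusted p = 0.00932). Its DIG1 libraries lay far apart, at 0.1125 and 4.869 RPKM. Of 5 root markers, 4 fell and 0 rose, with sums of 35.3 and 49.2 RPKM in GFP and 11.5 and 4.65 in DIG1. Of 6 green tissue markers, 5 fell and 0 rose, with sums of 42415 and 38663 RPKM in GFP and 13746 and 16709 in DIG1. None of the guard cell, root and green tissue markers was at 0 in any library. Markers low in DIG1 may be listed only through GFP, and no count without them was made. An example is the root marker NRT2:1, named here for its low values, at 0.035 and 0.029 RPKM in the DIG1 libraries. The part of these markers' tissues in the lower levels of the lipid transfer protein genes was not tested. At 4 h, 0 of the 6 epidermis markers were called by limma in DIG1 or in DIG2, with 0 and 1 at an unadjusted p under 0.05. The guard cell marker KAT1, 1 of 3 listed, fell in DIG1 (-1.21, limma adjusted p = 0.00266) and DIG2 (-1.32, limma adjusted p = 0.00118). Among 6 green tissue markers, LHB1B2 fell in DIG1 and CAB2 in DIG2. All 6 had negative log2 changes in both lines, as had 8784 (DIG1) and 8887 (DIG2) of all 17371 genes. Among 5 listed root markers, 1 rose and 1 fell in DIG1 and 0 were called in DIG2. Of all genes, 8.54% were called in DIG1 and 14.9% in DIG2. The sums of the epidermis markers were 1071 and 1237 RPKM in GFP, 1379 and 1136 in DIG1 and 1408 and 1689 in DIG2.

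For 3 of the members the genes with the most similar pattern were found over the 10 libraries, by Pearson's r of log2(RPKM + 0.5) after each table was centred on its own mean, among 5845 genes. The libraries form 5 groups, and at 10 d the values of LTPG1 and AZI1 fall into separate clusters by line, so r is a description only. Those of LTP2 overlapped at 10 d, and at 4 h its DIG1 libraries lay far apart (3374 and 1723 RPKM). LTPG1 was most like PIP3 (r = 0.991), PDF1 (0.989) and RALFL22 (0.984). AZI1 was most like BLH3 (0.962), RCAR3 (0.958) and PAF2 (0.947), and LTP2 was most like TUB2 (0.942), RBP31 (0.934) and ALDH10A8 (0.882). Among the members themselves, r was 0.99 for LTPG1 and LTPG2, 0.98 for LTP1 and LTP6 and 0.90 for LTP5 and AZI1. It was -0.00 for the neighbours LTP1 and LTP2 and 0.21 for EARLI1 and AZI1.

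The 250 bases upstream of the transcript start are shown for LTP1 and LTP2, the tandem pair of which LTP1 fell at 10 d and LTP2 did not pass the test (RefSeq TAIR10.1, 5′ to 3′ on the plus strand, at chr2:16130040-16130289 and chr2:16127926-16128175). Capitals mark ACGTG, the core of the ABA response element, on either strand.
LTP1 upstream: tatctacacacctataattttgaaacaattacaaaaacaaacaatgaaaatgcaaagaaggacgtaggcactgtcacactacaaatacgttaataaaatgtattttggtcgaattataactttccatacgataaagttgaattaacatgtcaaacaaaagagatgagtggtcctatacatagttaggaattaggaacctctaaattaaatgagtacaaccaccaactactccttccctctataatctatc
LTP2 upstream: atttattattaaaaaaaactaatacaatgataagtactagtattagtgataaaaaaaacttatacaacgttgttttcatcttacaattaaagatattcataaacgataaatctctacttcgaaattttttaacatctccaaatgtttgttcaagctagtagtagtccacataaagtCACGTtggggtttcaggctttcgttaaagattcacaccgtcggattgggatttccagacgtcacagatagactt

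ACGTG stood in the upstream window of 2 of the 10 genes, LTP2 (at position -74 from the transcript start) and AZI1 (at -200), and in 22.9% of 27443 windows of the same length. Its longer form CACGTG, the G-box, was in 0 of the 10 and in 6.49% of all windows. TTGAC, the core bound by WRKY factors, was in 6 of the 10 and in 44.9% of all, and CCGAC, the core of the dehydration response element, was in 1 of the 10 and in 12% of all. All motifs were searched on both strands, and a match to ACGTG is contained in each match to CACGTG. The windows of LTP3 and LTP4 held TTGAC and no other motif searched. A match is a description of the sequence and says nothing of binding by a factor.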

How the data were processed

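Polyadenylated RNA of whole seedlings was sequenced with a stranded kit on an Illumina instrument, per the labels' protocols. HTSeq 0.5.4, edgeR 3.6.2 and the build TAIR10 are named in the submitters' processing notes. No aligner is named in the sources used here. The authors deposited 1 table per experiment. Per the file headers, each holds RPKM values per library, with a log2 fold change and an FDR, an adjusted p-value, for each line against GFP. The columns name the lines by another abbreviation with the same numbers, and they were joined to samples by line number, time and replicate. All but 29 genes at 4 h and 131 at 10 d reached 2 CPM (reads scaled to the library total) in at least 2 libraries, so genes low in every group are largely not listed and such members are not analysed here. Symbols came from the TAIR10.1 annotation and matched 18344 of 18411 genes.

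The authors' RPKM values were tested as log2(RPKM + 0.5) with limma 3.58.1 in R 4.3.3 (empirical Bayes variances that follow mean level, two-sided tests, p-values adjusted by Benjamini-Hochberg across the whole table, threshold 0.05). The 6 libraries at 4 h shared 1 fit and the 4 libraries at 10 d another. For genes with low values this scale understates the change. The fit was tested on simulated data. RPKM steps gave whole reads for 100.0% of listed genes (tolerance 0.001 read), with 9986268 to 19025166 reads per library, and these served for depth, for the counting interval of LTP4 and for 1 alternative test. RPKM scaling differed from scaling to those totals by factors of 0.929 to 1.09. The members and gene lists were chosen with earlier results of these data known. All 10 members are named. Of each other list, up to 4 called genes were named, by size of change and with a mean of at least 1 RPKM. RAB18 was named by the same rule beside LTP3 and LTP4, and other exceptions are marked. Alternatives were other pseudocounts (0.1 and 1 RPKM), a filter at a mean of 1 RPKM, no variance trend, other scalings, a replicate block, limma voom on recovered reads and each library left out.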

Additional observations from a re-analysis of the deposited data

Results flagged for a closer look

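EARLI1 moved in opposite directions at the 2 times. In DIG1 against GFP its log2 change was 0.95 at 4 h, with both DIG1 libraries above both GFP libraries, and -1.55 at 10 d, with both DIG1 libraries below both GFP libraries. The difference between the times was not tested, and the seedlings also differed in age, light and dose. At 4 h EARLI1 was listed only through the DIG1 libraries, which alone reached 2 CPM. The values at 4 h rest on 13 to 27 reads per library and those at 10 d on 212 to 1330. AZI1, its neighbour, was below GFP at both times.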

How the results depend on the processing

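With 2 libraries a group, the calls of AZI1 at 4 h (both DIG lines) and of LTP1, LTP3, LTP4, LTP6, LTPG1 and LTPG2 at 10 d passed under every alternative run. LTP3 and LTP4 could be listed only through GFP, and every alternative kept that selection, so for them these passes are no further support. Of 456 values recomputed under an alternative, 413 kept their direction and their side of the threshold. With 1 library left out, the count of called genes was 2 to 3 for DIG1 at 4 h (3 with all libraries), 1 to 4 for DIG2 at 4 h (4), 0 for DIG1 against DIG2 and 6 to 8 for DIG1 at 10 d (8). The spread in a fit that leaves 1 library in a group is taken from the other groups. LTP5 also lost its call without a variance trend in DIG1 and DIG2 at 4 h and in DIG1 at 10 d (adjusted p = 0.0535, 0.0634 and 0.066), and at 10 d with a pseudocount of 0.1 (0.0506). EARLI1 lost its call in DIG2 at 4 h with voom on recovered reads (0.0924), a test chosen after seeing the data in place of a planned edgeR test, which was not run because the files hold no counts. AZI1 at 10 d passed with voom (0.0498).

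Only genes that did not pass turned direction. Under quantile normalization LTP2 turned to 0.07 in DIG1 at 4 h and to 0.27 between DIG lines, where LTP5 turned to 0.00, and under median ratio scaling LTP2 turned to -0.00 at 10 d. With 1 library left out, LTP2 ranged from -0.88 (without DIG1 replicate 1) to 0.08 (without DIG1 replicate 2) in DIG1 at 4 h, from -0.39 (without GFP replicate 1) to 0.03 (without GFP replicate 2) in DIG2, from -0.70 to 0.27 between DIG lines (without DIG1 replicates 1 and 2) and from -0.07 to 0.18 at 10 d (without GFP replicates 2 and 1). Without DIG1 replicates 1 and 2, LTPG1 in DIG1 at 4 h was -0.02 and 0.18, and LTP6 between DIG lines was -0.10 and 0.76. LTPG2 was -0.04 in DIG1 without DIG1 replicate 1. Without DIG2 replicates 2 and 1, LTPG2 was -0.07 and 0.36 in DIG2 and 0.08 and -0.35 between DIG lines, and LTP5 between DIG lines was 0.01 and -0.19. The cause was not tested beyond the library or scaling named. Quantile normalization moved the median of all genes at 10 d from 0.05 to 0.13.

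The labels do not say whether libraries of the same replicate number were handled together, and the correlations below do not settle it. The correlation across genes of the replicate differences was 0.017 for GFP and DIG1, 0.163 for GFP and DIG2 and -0.009 for DIG1 and DIG2 at 4 h, and 0.041 at 10 d. With the number as a replicate block, 3 genes were called for DIG1 and 4 for DIG2 at 4 h, 0 for DIG1 against DIG2 and 9 at 10 d, where AZI1 was added (adjusted p = 0.00536). Depth limits LTP4 and LTP3 in DIG1 at 10 d and EARLI1 at 4 h.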
